A study of Callithrix jacchus with 4 samples.

Results

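The reticulon genes *RTN4* (Nogo), *RTN1* and *RTN3*, the Nogo receptor genes *RTN4R*, *RTN4RL1* and *RTN4RL2*, and the co-receptor genes *LINGO1* and *TNFRSF19* were followed across the cell types of marmoset primary visual cortex (V1) after ischemic injury. They were chosen by name as ligand, family members, receptors and co-receptors of the Nogo pathway. Of these 8 genes, 7 were listed in both tables of counts, among 32323 genes in the injured table and 16383 in the control table, and *RTN4R* was not analysed here. The injured cohort was 3 adult marmosets whose left V1 was collected 7 days after injection of endothelin-1 (ET-1), a peptide that constricts blood vessels, with 1 library of nuclei per animal, and the tissue was gray matter of the operculum that held both lesion core and penumbra. The control cohort was V1 of 3 uninjured adult marmosets pooled before sequencing as 1 library, which gives no measure of how control animals vary. The injection was made under alfaxalone and isoflurane anaesthesia, animals of both cohorts were killed with sodium pentobarbitone, and the labels give no genotype. Each cohort also had its own way of isolating nuclei, sequencing facility, sequencer and way of removing doublets, and their effects cannot be told apart from those of injury.

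Reticulons are membrane proteins that curve the tubules of the endoplasmic reticulum. The longest product of *RTN4*, NogoA, is also displayed on the surface of oligodendrocytes and myelin, where it stops growing axons. Nogo receptors are held on the neuronal surface by a lipid anchor and have no part inside the cell, so they signal to RhoA and the cytoskeleton through partners such as LINGO1 and TNFRSF19 (TROY). The tables hold 1 count per gene and nucleus, so NogoA and the shorter products of *RTN4* could not be told apart.

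There were 7500, 12527 and 9510 nuclei from injured replicates 1, 2 and 3, and 8610 from the control pool. Depth differed, with a median of 3531 to 4504.5 unique molecular identifiers (UMIs, tags of single captured transcripts) per nucleus in injured libraries and 2117 in control. Any 2 libraries shared between 15 and 27 cell barcodes, and 49 to 71 barcodes of a library, 0.519% to 0.755% of its nuclei, were found in the other libraries together. By the authors' cell type labels, 32 of 33 markers were highest in their own type in each injured library and 31 of 32 in control, which the labels fix in part because clusters had been named from these markers. Levels are given below as CPM, the counts of a gene per 1000000 UMIs summed over all nuclei of a type in a library. They are compared between cell types and cohorts for 1 gene at a time, not between genes. Because cell types were assigned by clustering the same nuclei, the order of cell types is a description with no test.

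*RTN4*, the ligand, was highest in oligodendrocytes in every library. It reached 1419, 1239 and 1426 CPM in oligodendrocytes of injured replicates 1, 2 and 3 and 1276 CPM in control, so the control value lay within the injured range. Astrocytes held 687, 782 and 581 CPM in the injured animals and 205 CPM in control, and endothelial cells held 581, 604 and 584 CPM against 220.5 CPM. In both types every injured value lay above the control value, with no overlap. Excitatory neurons held 467, 544 and 496 CPM against 265 CPM, and inhibitory neurons 309, 381 and 341 CPM against 211 CPM. Oligodendrocyte precursor cells (OPCs) held 340.5, 468 and 366 CPM against 155 CPM. Microglia held 287, 378 and 344 CPM against 257 CPM. The injured animals were thus all above control in 6 of the 7 cell types, and oligodendrocytes were the exception. How many of all genes had such an order was not counted. Orders of 3 injured values against 1 control value, here and below, are therefore descriptions.

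The order of cell types also differed between the cohorts. In injured tissue oligodendrocytes came first, at 1.99 times the mean of astrocytes, with ranges that did not overlap. Astrocytes and endothelial cells came next, and their ranges overlapped. Below them, excitatory neurons and OPCs overlapped, as did OPCs, inhibitory neurons and microglia in turn. In the control library astrocytes were in position 6 of 7 and excitatory neurons in position 2, although the control values of all types other than oligodendrocytes lay between 155 and 265 CPM.

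**Figure D1:**
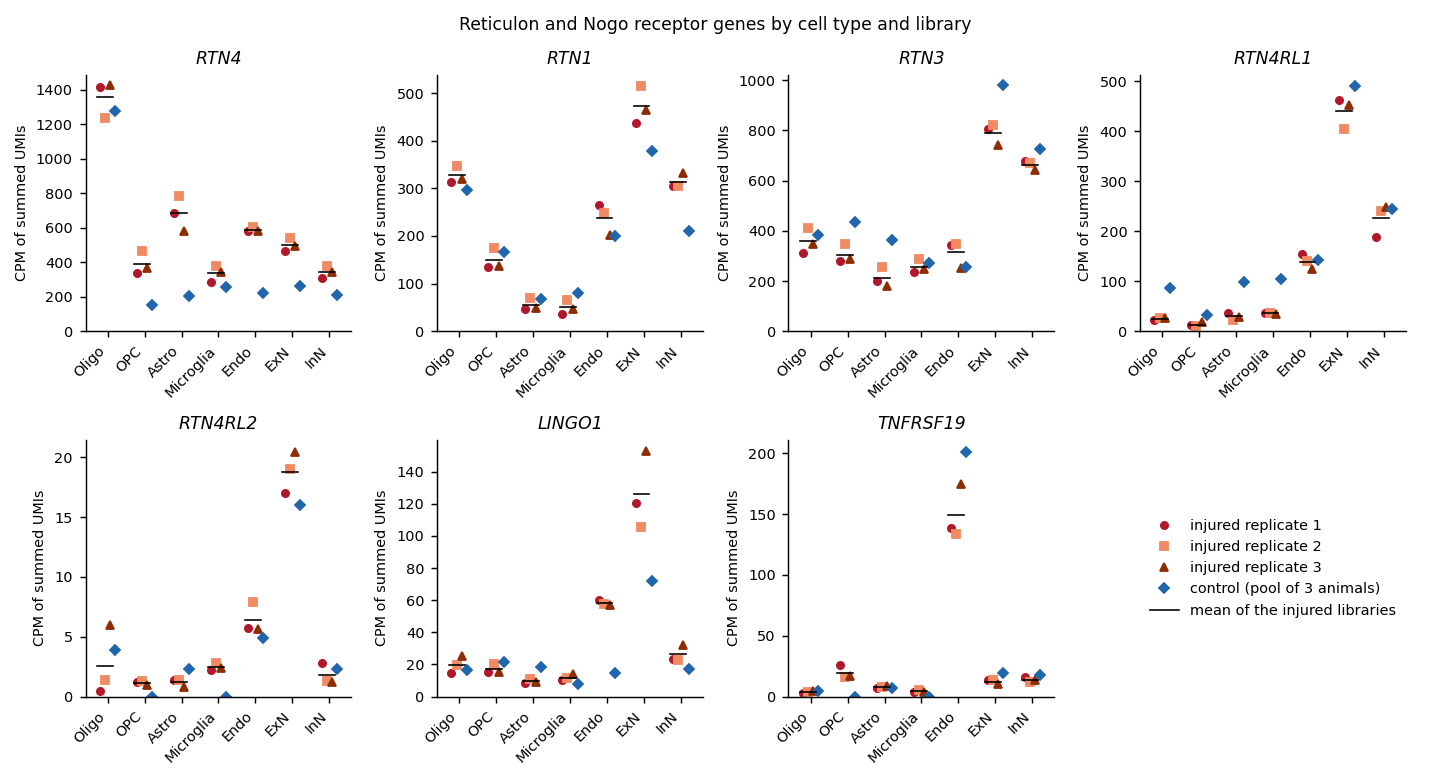
CPM of summed UMIs (vertical axis, from 0) for each gene in the 7 cell types (horizontal axis). Red and brown points are the 3 injured libraries, blue diamonds the pooled control library and black lines the injured mean. *RTN4* stands at 1239 to 1426 CPM in injured oligodendrocytes, and *RTN4RL1* and *LINGO1* are highest in excitatory neurons.

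The share of nuclei with an *RTN4* UMI was compared after each nucleus was thinned to 1000 UMIs, since injured nuclei were deeper. In astrocytes this share was 42.1% ± 3.07 (SD, n = 3) in the injured animals and 17.1% in control (exact 95% interval 13.4% to 21.4%). Without thinning the shares were 79.6% ± 7.41 and 21.2%. Most of the unthinned gap in oligodendrocytes, 90.4% ± 3.82 against 71.2%, was absent at equal depth, where the shares were 70.8% ± 1.99 and 69.8% (65.4% to 73.9%). Nuclei with fewer than 1000 UMIs were left out of the thinned shares, which removed 655 of 1122 control oligodendrocytes but 17 of 710, 82 of 1070 and 45 of 682 in injured replicates 1, 2 and 3. In astrocytes it removed 232 of 594 control nuclei and 4 to 23 nuclei of an injured library, so the nuclei compared were selected differently.

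The other types were compared in the same way, without 96 of 181 endothelial cells, 91 of 171 OPCs, 90 of 1011 inhibitory and 250 of 5402 excitatory neurons in control. Endothelial cells had an *RTN4* UMI in 39.6% ± 2.21 of injured and 18.8% of control nuclei, and excitatory neurons in 36.8% ± 3.17 and 24.2%. In OPCs the shares were 29.9% ± 3.47 and 10% (4.42% to 18.8%), and in inhibitory neurons 26.8% ± 4.42 and 17.5%. All 3 injured shares were above the control share in each of these 4 types. For microglia the shares were 27.2% ± 2.26 and 21.6%, and only 37 control microglia were deep enough to be used, so the control interval of 9.83% to 38.2% spans the injured value. Nuclei with at least 2 *RTN4* UMIs made up 14.4% ± 2.78 of thinned astrocytes in injured tissue and 1.93% in control, and 36.4% ± 3.15 and 36.6% of oligodendrocytes. Counting intervals here and below cover counting error only.

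**Figure D2:**
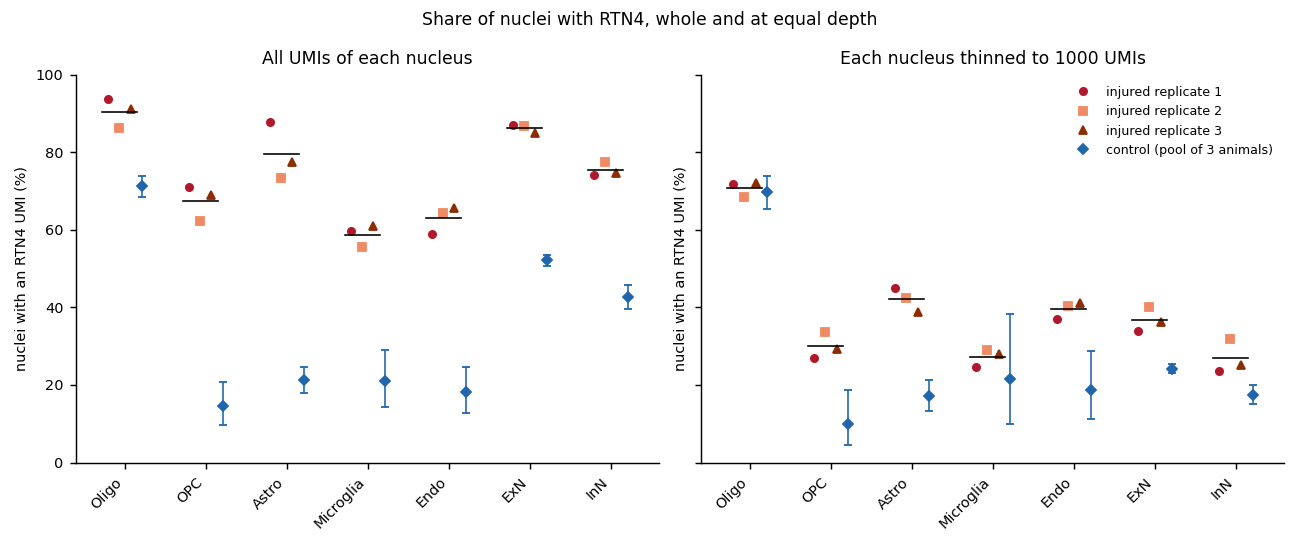
Share of nuclei with an *RTN4* UMI (percent, vertical axis) by cell type (horizontal axis), from all UMIs (left) and after thinning to 1000 UMIs per nucleus (right). Points are libraries, black lines the injured mean and blue bars exact 95% intervals of the control share. The cohorts meet at about the same share in oligodendrocytes at equal depth (70.8% and 69.8%) and stay apart in astrocytes (42.1% and 17.1%).

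Injured and control sums were compared within each cell type with edgeR's quasi-likelihood test, 3 libraries against 1, and the Benjamini-Hochberg adjustment covered all genes tested in that cell type. A gene was called with an adjusted p below 0.01, a natural-log fold change beyond 0.25 in either direction and a UMI in at least 10% of nuclei of either cohort. Of 45 comparisons of a gene in a cell type, 3 were called, and all 3 were rises of *RTN4*. None was called lower by edgeR or by DESeq2, although 5 values below 0 had an unadjusted p under 0.05. The 10% limit barred a call of *RTN4RL1* in oligodendrocytes and astrocytes and of *TNFRSF19* in excitatory neurons at any p. In astrocytes *RTN4* rose by 1.85 on the log2 scale (SE 0.24, adjusted p = 0.0056), where 1.12% of all genes were called higher and 0.378% lower. In endothelial cells it rose by 1.55 (SE 0.25, adjusted p = 0.0046), where 4.19% were called higher and 1.99% lower. In excitatory neurons it rose by 1.04 (SE 0.15, adjusted p = 0.0058), where 2.6% were called higher and 1.25% lower. The study had picked *RTN4* from these same nuclei for its rise in astrocytes, so the astrocyte value is no independent evidence.

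The calls were close to the limit. Without injured replicate 1 the adjusted p became 0.0145 in astrocytes and 0.0232 in excitatory neurons, at log2 changes of 1.86 and 1.10, and neither was called. The paper states a limit of 2500 genes per nucleus for the control cohort and none for the injured cohort. With only nuclei of at most 2500 genes in both cohorts, the changes of 1.67 in astrocytes and 0.75 in excitatory neurons were not called either. The endothelial call was kept in that setting. In endothelial cells the call was lost after thinning, at 1.62 with an adjusted p of 0.0109. The summed level of oligodendrocyte markers was 216 to 251 CPM in injured and 326 CPM in control astrocytes, 247 to 289 CPM and 465 CPM in endothelial cells, and 152 to 167 CPM and 188 CPM in excitatory neurons. That of 6 excitatory neuron markers was 977 to 1072 CPM and 2093 CPM in astrocytes, but moved with *RTN4* in endothelial cells, at 1995 to 2600 CPM and 1210 CPM. The part of either in the *RTN4* values was not tested. Nuclei labelled endothelial also differed between cohorts in their own 3 markers, which summed to 3404 to 4096 CPM in injured and 848 CPM in control. The 6 astrocyte markers summed to 356 to 529 CPM and 1171 CPM in these nuclei. The part of these differences in the endothelial changes of *RTN4* and of the genes below was not tested.

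*RTN4* was not called in the other 4 types. In inhibitory neurons the log2 fold change was 0.81 (SE 0.17, adjusted p = 0.0126), with 2.2% of all genes called higher and 1.22% lower, and it was called after thinning (0.91, adjusted p = 0.0037), with nuclei of at most 2500 genes (0.88, adjusted p = 0.0026), with DESeq2, without the filter on low counts and without injured replicate 2. In OPCs it was 1.47 (SE 0.31, adjusted p = 0.067), with 0.061% called higher and 0.00871% lower, and it was called when either replicate 2 or replicate 3 of the injured cohort was left out. In those settings far more OPC genes were called, 820 of 11306 without replicate 2 and 293 of 11207 without replicate 3. In microglia the log2 fold change of *RTN4* was 0.64 (SE 0.28, adjusted p = 0.276). With the main settings no microglial gene was called by edgeR in either direction (0% of 13470 genes), although 2857 had an unadjusted p under 0.05 and DESeq2 called 303, and the control library held 129 microglia. With edgeR 395 were called without injured replicate 2, 18 with nuclei of at most 2500 genes, 6 without replicate 1 and 4 with library size alone. None was called after thinning or without replicate 3. In oligodendrocytes the log2 fold change was 0.20 (SE 0.17, adjusted p = 0.456), with 0.619% of genes called higher and 0.155% lower. Its 95% interval of -0.13 to 0.53 takes the SE as normal and is narrower than the test implies. Over all genes the median log2 fold change was 0.42 in microglia, 0.26 in endothelial cells and 0.17 in OPCs, and at most 0.05 in the other types. Scaling by library size alone moved the medians by -0.24 to -0.10, and *RTN4* kept its 3 calls.

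**Figure D3:**
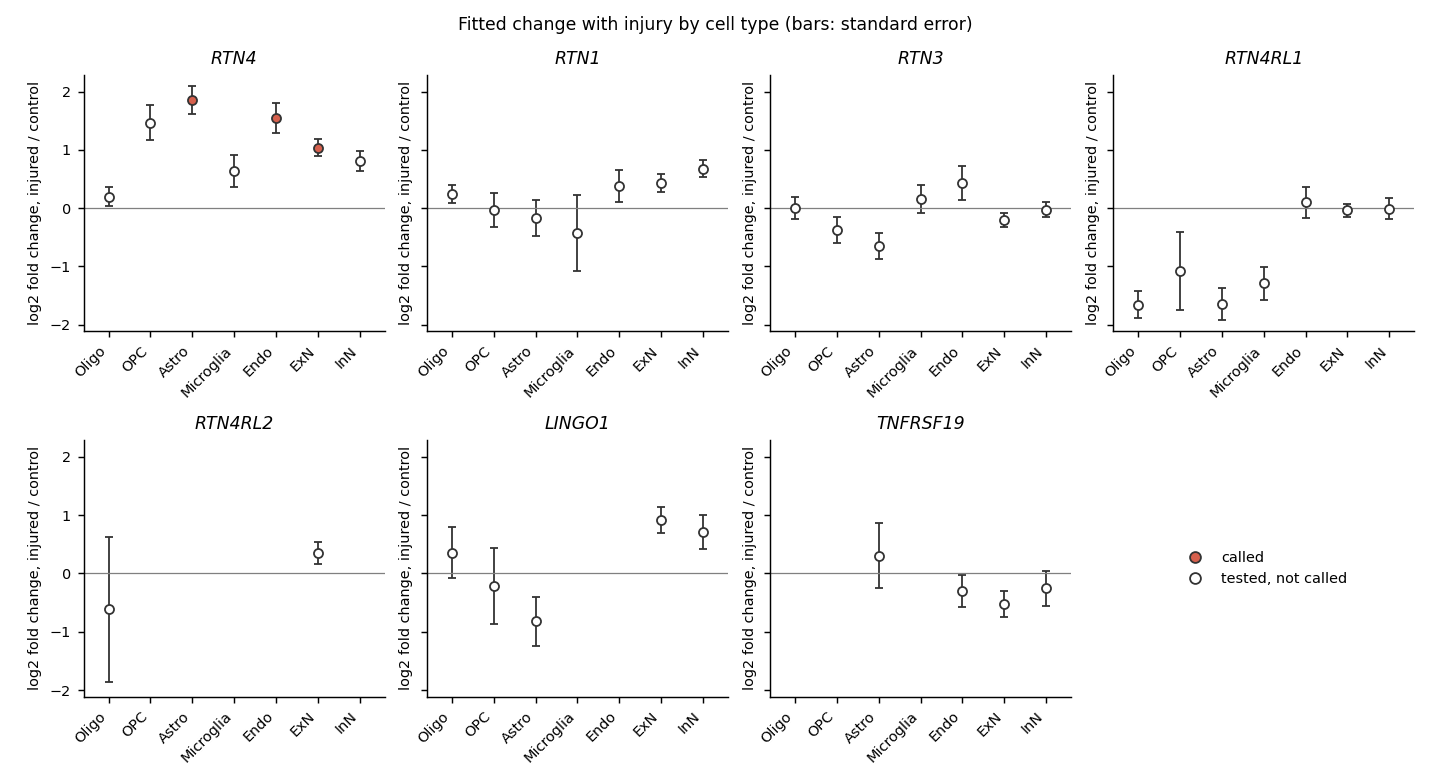
Fitted log2 fold change, injured over control (vertical axis), by cell type (horizontal axis), with standard errors as bars. Filled points were called and open points were tested and not called. Comparisons with at most 3 control UMIs are left out. The filled points are *RTN4* in astrocytes (1.85), endothelial cells (1.55) and excitatory neurons (1.04).

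Whether the *RTN4* change differed between cell types was tested as an interaction over the 28 sums of 4 libraries and 7 cell types, with library as a block. Oligodendrocytes differed from the mean of the other 6 types by -1.04 on the log2 scale (SE 0.18, adjusted p = 0.0053), where 0.305% of all genes were called. This call was lost without any one of the 3 injured replicates (adjusted p of 0.0608, 0.0206 and 0.0279 without replicates 1, 2 and 3) and also with RLE size factors (0.0107) and without the filter on low counts (0.0117). Astrocytes differed by 0.86 (SE 0.21, adjusted p = 0.0289) and endothelial cells by 0.55 (SE 0.25, adjusted p = 0.222), which did not pass. So the larger *RTN4* change in astrocytes than in the other types was not called, where 0.528% of genes were called for astrocytes and 3.38% for endothelial cells. For the remaining types the difference of *RTN4* ran from -0.48 in microglia to 0.50 in OPCs, with no call. Genes called in this test made up 2.53% for microglia, 0.19% for OPCs, 0.25% for excitatory neurons and 0.129% for inhibitory neurons.

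Among the other reticulons, *RTN1* was highest in excitatory neurons. Excitatory neurons held 436, 515 and 465 CPM in injured replicates 1, 2 and 3 and 379 CPM in control. Oligodendrocytes followed with 314, 347 and 320.5 CPM against 297 CPM, and inhibitory neurons with 306, 305 and 331 CPM against 211 CPM. The ranges of oligodendrocytes and inhibitory neurons overlapped, and both lay below excitatory neurons and above endothelial cells (202 to 264 CPM). Astrocytes and microglia were lowest, at 36.8 to 70.0 CPM in injured and 67.0 and 80.3 CPM in control libraries. *RTN1* was not called in any type. Its change was 0.67 (SE 0.14, adjusted p = 0.014) in inhibitory neurons, where it was called with DESeq2 or without injured replicate 2, and 0.43 (SE 0.15, adjusted p = 0.0761) in excitatory neurons. In OPCs and astrocytes the fitted values were -0.03 and -0.16, and each turned positive in thinned nuclei.

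*RTN3*, which has been studied as a partner of the amyloid-processing enzyme BACE1, was likewise highest in neurons. Excitatory neurons held 804, 821 and 743 CPM against 982 CPM in control, and inhibitory neurons 678, 669 and 641 CPM against 724 CPM. All injured CPM values were below control in both types. The fitted changes were -0.20 (SE 0.12, adjusted p = 0.266) in excitatory and -0.03 (SE 0.13, adjusted p = 0.912) in inhibitory neurons, and neither was called. The other 5 types lay between 181 and 413 CPM in injured libraries, and each overlapped with its neighbour in the order. In astrocytes, the lowest type, *RTN3* stood at 202, 256 and 181 CPM against 362 CPM, the opposite direction to *RTN4*. That change of -0.65 (SE 0.22, adjusted p = 0.0951) was not called, nor was its difference of -0.70 from the other types (SE 0.17, adjusted p = 0.0329). At equal depth 19.8% ± 2.46 of injured and 23.8% of control astrocytes (19.5% to 28.5%) had an *RTN3* UMI, so the control interval holds the injured mean. The 6 excitatory neuron markers were also lower in injured astrocytes, at 977 to 1072 CPM against 2093 CPM. In control astrocytes *RTN3* was at 36.8% of its level in excitatory neurons, beside markers from 12.6% to 46.8%. In injured replicates 1, 2 and 3 it was at 25.1%, 31.1% and 24.4%, beside highest markers of 25.0%, 29.0% and 26.8%. The part of neuronal RNA was not tested.

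The receptor genes analysed, which leave out *RTN4R*, lay mostly in neurons. Whether the products of *RTN4RL1* and *RTN4RL2* bind NogoA or pair with LINGO1 and TNFRSF19 was not tested, here and below. *RTN4RL1*, which encodes the Nogo receptor homolog NgR3, was at 463, 405 and 454 CPM in excitatory neurons of injured replicates 1, 2 and 3 and at 489.9 CPM in control. Inhibitory neurons held 189, 241 and 249 CPM against 245 CPM, and endothelial cells 154, 140.4 and 124 CPM against 142 CPM. These 3 types followed each other without overlap in injured libraries. As a share of its level in excitatory neurons, endothelial *RTN4RL1* was at 33.3%, 34.6% and 27.3% in injured replicates 1, 2 and 3, within the range of the 6 excitatory neuron markers there (18.2% to 33.7%, 18.0% to 39.0% and 13.6% to 32.8%). In control it was at 29.0%, beside markers from 3.37% to 38.0% with a median of 6.76%, and the part of neuronal RNA in these values was not tested. The log2 change was 0.10 (SE 0.27) in endothelial cells, -0.04 (SE 0.12, normal 95% interval -0.27 to 0.19) in excitatory neurons, where other settings turned the sign, and -0.01 (SE 0.18) in inhibitory neurons. Glia held far less, from 11.1 to 36.6 CPM in injured libraries.

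In glia the control values of *RTN4RL1* were above every injured value. Oligodendrocytes held 22.8, 27.0 and 26.8 CPM in the injured animals and 86.1 CPM in control, astrocytes 36.4, 23.6 and 29.0 CPM against 99.4 CPM, and microglia 36.5, 36.6 and 34.5 CPM against 104 CPM. The log2 changes were -1.65 (SE 0.23, adjusted p = 0.0103) in oligodendrocytes, -1.64 (SE 0.27, adjusted p = 0.0114) in astrocytes and -1.29 (SE 0.28, adjusted p = 0.0791) in microglia. None was called, and in oligodendrocytes and astrocytes fewer than 10% of nuclei had a UMI in either cohort. In oligodendrocytes the adjusted p ran from 0.0033 to 0.0251 over the alternative fits. With a UMI in 5.20% of injured and 5.08% of control nuclei, below the 10% limit, *RTN4RL1* could not be called there at any p. Without injured replicate 2 the astrocyte value of -1.51 was called. In OPCs *RTN4RL1* stood at 11.7, 11.1 and 17.9 CPM against 32.1 CPM, from 6 control UMIs, a change of -1.08 (SE 0.67) that was not called. Excitatory neuron markers were also lower in 3 of these 4 types. The summed level of 6 such markers, none of them at 0 in these 3 types, was 747 to 1026 CPM in injured and 1736 CPM in control oligodendrocytes, 977 to 1072 CPM and 2093 CPM in astrocytes, and 1146 to 1229 CPM and 1687 CPM in microglia. In OPCs the sum was 837 to 1040 CPM and 765 CPM, with 1 of the 6 at 0 in control. In control, *RTN4RL1* in oligodendrocytes and astrocytes was at 17.6% and 20.3% of its level in excitatory neurons, and the median marker at 16.3% and 17.0%. The microglial sum hides markers that moved apart. By the same measure the median marker in microglia was at 4.12%, 6.11% and 5.26% in injured replicates 1, 2 and 3 and 18.3% in control. The highest marker was at 47.3%, 49.2% and 47.1%, and at 40.6% in control. The part of neuronal RNA in these glial values was not tested.

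**Figure D4:**
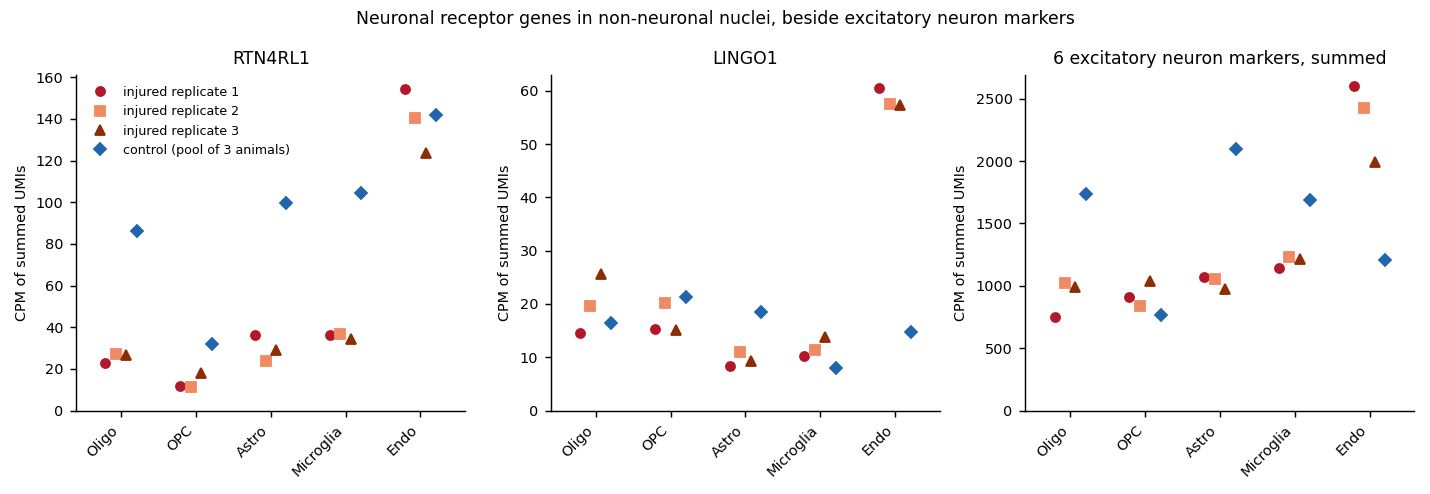
CPM of summed UMIs (vertical axes, from 0) in the 5 non-neuronal cell types for *RTN4RL1* (left), *LINGO1* (middle) and 6 excitatory neuron markers added together (right). Points are libraries. *RTN4RL1* and the markers are both higher in control than in injured oligodendrocytes, astrocytes and microglia, and *LINGO1* and the markers are both higher in injured endothelial cells.

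Within thinned excitatory neurons *RTN4RL1* differed between nuclei with a *CUX2* UMI but no *FOXP2* UMI and nuclei with the reverse. *CUX2* is a marker of upper layers and *FOXP2* of deep layers, and nuclei with both were left out. This split was chosen after the values had been seen and is a description. At equal depth 40.8%, 34.7% and 38.3% of *CUX2* nuclei had an *RTN4RL1* UMI in injured replicates 1, 2 and 3, and 22.6%, 18.8% and 25.1% of *FOXP2* nuclei. In control the shares were 37.5% of 1673 *CUX2* nuclei and 19.4% of 320 *FOXP2* nuclei. The same order was thus present in every library. It was also present in every library for *RTN3*, *RTN4RL2* and *LINGO1*, reversed in every library for *RTN1*, and varied for *TNFRSF19*. Nuclei with neither marker numbered 971, 2567 and 1583 in injured replicates 1, 2 and 3 and 3030 in control. Of these, 34.5%, 30.2% and 31.6% in injured and 30.3% in control had an *RTN4RL1* UMI. For *RTN4* the shares of *CUX2* and *FOXP2* nuclei were 36.0% and 36.3% in injured replicate 1, 42.1% and 36.4% in replicate 2, 39.4% and 32.3% in replicate 3, and 23.0% and 23.4% in control, so its order varied between libraries.

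*RTN4RL2*, which encodes the homolog NgR2, was sparse. It reached 17.0, 19.0 and 20.4 CPM in injured and 16.0 CPM in control excitatory neurons, where 10.3% ± 0.91 and 4.42% of whole nuclei and 1.85% ± 0.18 and 1.49% of thinned nuclei had a UMI. Its change there was 0.35 (SE 0.19, adjusted p = 0.211). All other types lay at or below 7.87 CPM in every library, and control OPCs and microglia held no UMI. It was too low for a test in OPCs, astrocytes and inhibitory neurons.

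*LINGO1*, the co-receptor that couples Nogo receptors to the cytoskeleton, was highest in excitatory neurons. It stood at 121, 105 and 153 CPM in injured replicates 1, 2 and 3 and at 72.3 CPM in control, with every injured value above control. The log2 change of 0.92 (SE 0.22, adjusted p = 0.0266) was not called, and it was called with DESeq2 and when either replicate 2 or replicate 3 of the injured cohort was left out. At equal depth 11.7% ± 1.70 of injured and 6.93% (6.25% to 7.66%) of control excitatory neurons had a *LINGO1* UMI, and 1.23% ± 0.51 of injured microglia, a type outside the known sites of the gene. Inhibitory neurons held 23.6, 23.1 and 31.9 CPM against 17.2 CPM, a change of 0.71 (SE 0.29, adjusted p = 0.111).

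Endothelial cells were second for *LINGO1* in injured tissue, at 60.4, 57.5 and 57.3 CPM, and control held 3 UMIs in 181 nuclei (14.7 CPM). The ratio was 3.95, with a counting interval of 1.35 to 19.2. It was not called, but it was called without injured replicate 2 and with nuclei of at most 2500 genes. The summed excitatory neuron markers also stood higher in injured endothelial cells, at 1995 to 2600 CPM against 1210 CPM, and their part in the *LINGO1* value was not tested. As a share of its level in excitatory neurons, *LINGO1* in injured endothelial cells was at 37.6% to 54.6%, above the highest of the 6 markers in each animal (32.8% to 39.0%). In control, from 3 UMIs, *LINGO1* was at 20.3%, within the marker range of 3.37% to 38.0%. In astrocytes, OPCs, oligodendrocytes and microglia *LINGO1* stayed at or below 25.6 CPM in every library. Astrocytes held 8.41, 10.9 and 9.40 CPM in injured and 18.5 CPM in control, all injured values below control. Neither that change of -0.82 (SE 0.42, adjusted p = 0.229) nor its difference of -1.65 from the other types (SE 0.47, adjusted p = 0.0706) was called. The excitatory neuron markers were also lower in injured astrocytes, at 977 to 1072 CPM against 2093 CPM. In control astrocytes *LINGO1* was at 25.6% of its level in excitatory neurons, within the marker range of 12.6% to 46.8%. The part of neuronal RNA in this change was not tested.

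*TNFRSF19*, the receptor TROY that can stand in for the neurotrophin receptor NGFR beside Nogo receptors, was highest in endothelial cells in every library. Nuclei labelled endothelial held 139, 134 and 175 CPM in injured replicates 1, 2 and 3 and 201 CPM in control, 7.56 times the next type in injured tissue. The change of -0.30 (SE 0.27, adjusted p = 0.482) was not called. The share of whole nuclei with a UMI was 18.6% ± 3.36 and 17.7%, whereas at equal depth it was 9.76% ± 1.44 and 22.4% (14.0% to 32.7%, 85 nuclei), and the change fitted to thinned nuclei was not called either. OPCs came second in injured tissue with 25.9, 16.3 and 17.0 CPM. Control OPCs held 0 UMIs in 171 nuclei, which allows a share of nuclei with a UMI of up to 1.75% by a floor of 3 counts. A floor of 3 UMIs in that library is 16.05 CPM, close to the level of injured replicates 2 and 3. Excitatory neurons held at most 13.4 CPM in injured libraries against 19.1 CPM in control, with a change of -0.53 (SE 0.22, adjusted p = 0.123).

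Where ligand and receptor RNA came from also depended on how many nuclei of each type were in a library. Excitatory neurons held the most *RTN4* UMIs in every library, 43.4% ± 8.01 in injured and 63.8% in control. Oligodendrocytes made up 8.39% ± 1.15 of injured and 13.0% of control nuclei and held 13.5% ± 4.96 and 23.0% of *RTN4* UMIs. Astrocytes were 6.99% ± 1.48 and 6.90% of nuclei and held 9.21% ± 0.997 and 2.50% of *RTN4* UMIs. Excitatory neurons held 80.9% ± 0.59 of *RTN4RL1*, 84.4% ± 3.89 of *RTN4RL2* and 81.5% ± 2.09 of *LINGO1* UMIs in injured libraries, from 31.0% ± 5.83 of nuclei. In control they held 89.3%, 94.8% and 92.6%, from 62.7% of nuclei. For *TNFRSF19* the main source was endothelial in injured libraries (57.8% ± 9.71) and excitatory neurons in control (75.3%), with endothelial nuclei at 15.1% ± 2.32 and 2.10% of nuclei. Fewer nuclei of a type, or losses in isolation, cannot be told apart from tissue composition here.

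**Figure D5:**
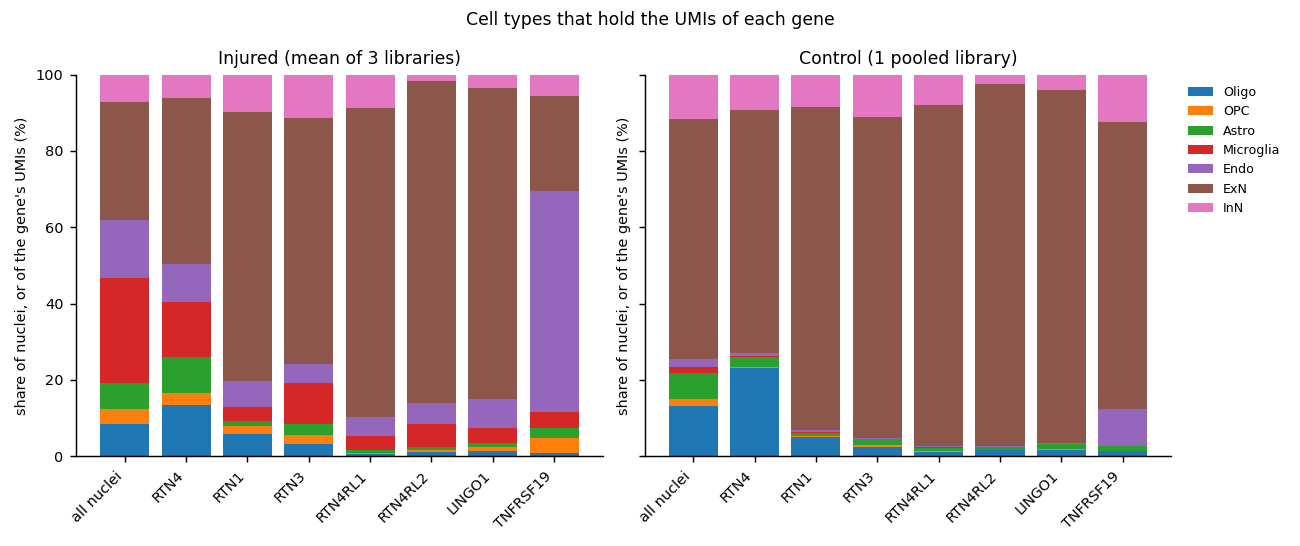
Share of all nuclei (first bar) and of the UMIs of each gene (other bars) by cell type, in percent (vertical axis), for the injured mean (left) and the control library (right). Excitatory neurons hold 80.9% of injured *RTN4RL1* UMIs and 81.5% of *LINGO1* UMIs, and 43.4% of injured and 63.8% of control *RTN4* UMIs.

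Receptor and co-receptor RNA, without *RTN4R*, were also counted in the same nucleus. At equal depth 34.6% ± 2.08 of injured excitatory neurons had a UMI of *RTN4RL1* or *RTN4RL2*, 12.6% ± 1.65 had one of *LINGO1* or *TNFRSF19*, and 4.76% ± 0.74 had both. The product of the first pair of shares was 4.37% ± 0.73. In control 3.13% had both, beside a product of 2.97%. In endothelial cells 2.28% ± 0.39 of injured nuclei had both (product 2.03% ± 0.30) and 3.53% of control nuclei (product 3.197%). In inhibitory neurons the shares were 0.91% ± 0.13 (product 0.82% ± 0.13) and 0.22% (product 0.43%). The overlap in excitatory neurons was near the product in both cohorts.

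The genes whose pattern was most like each member were found by Pearson's r of log2(CPM + 1) over the 21 injured sums, which share libraries and depth, among 13746 other genes. For *RTN4* they were *GPR37* (r = 0.92), *SEPTIN7* (0.92) and *ADAMTS4* (0.91). *GPR37* encodes a receptor of maturing oligodendrocytes. For *RTN1* the named ones were *SEMA7A* (0.97) and *PRKCZ* (0.96), and for *RTN3* *TRMT61B* (0.95) and *SYP* (0.93), the gene of the synaptic vesicle protein synaptophysin. *RTN4RL1* was most like *MICAL2* (0.98), *SYNDIG1* (0.97) and *PACSIN1* (0.97), *RTN4RL2* like *FAP* (0.93) and *ITPKA* (0.92), and *LINGO1* like *KIAA1211L* (0.97), *GLIS1* (0.96) and *CDH22* (0.95). *TNFRSF19* was most like *PODXL* (0.96), *MAMDC2* (0.96) and *ADGRA2* (0.96), of which *PODXL* and *ADGRA2* are known from vessel walls. Between members, *LINGO1* and *RTN4RL2* had r = 0.88 and *RTN4RL1* and *LINGO1* r = 0.81, whereas *RTN4* and *RTN4RL1* had r = -0.23.

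The rest of the pathway was read from a list of 47 genes, of which 37 were in both tables. Over the 7 cell types, 9 of 238 comparisons were called, 6 higher and 3 lower, which is 3.78% beside 2.35% of all 90333 comparisons of a gene in a cell type. Of 5 integrin subunits, whose complexes bind another stretch of NogoA, *ITGB1* and *ITGA5* were called in astrocytes and *ITGB1* alone in endothelial cells. *ITGB1* stood at 218, 156 and 167 CPM in injured and 34.7 CPM in control astrocytes, a rise of 2.48 (SE 0.30, adjusted p = 0.0044), and rose by 2.59 (SE 0.29, adjusted p = 0.0011) in endothelial cells. In oligodendrocytes (1.60), OPCs (2.07) and microglia (1.40) *ITGB1* was also above control in all 3 injured animals, and not called. *ITGA5* in astrocytes was at 65.9, 55.0 and 104 CPM, with 1 UMI in control. Its ratio of 68.2 has a counting interval of 12.2 to 2699, and it was called (adjusted p = 0.0072).

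*OLFM1*, whose product binds the Nogo receptor, rose in both neuronal types. It was at 323, 303 and 419 CPM in injured and 98.1 CPM in control excitatory neurons, a rise of 1.94 (SE 0.22, adjusted p = 0.0029), and rose by 2.07 (SE 0.21, adjusted p = 0.000315) in inhibitory neurons. Endothelial *OLFM1* was also called (adjusted p = 0.0012), at 257, 193 and 252 CPM against 3 control UMIs, a ratio of 15.7 (counting interval 5.36 to 76.1). The excitatory neuron markers were also higher in injured endothelial cells (1995 to 2600 CPM against 1210 CPM), and their part in the *OLFM1* value was not tested. In oligodendrocytes (log2 change 1.82), OPCs (1.42) and astrocytes (0.64) *OLFM1* was above control in all 3 injured animals, and not called. In microglia (0.75, not called) 2 of the 3 animals were above control. Genes that fell were *ATL2*, which fuses tubules of the endoplasmic reticulum, by 1.89 (SE 0.21, adjusted p = 0.0038) in astrocytes, the reticulon *RTN2* by 0.72 (SE 0.12, adjusted p = 0.0083) in excitatory neurons, and the scaffold gene *SH3RF1* by 1.02 (SE 0.20, adjusted p = 0.0098) in endothelial cells. The *SH3RF1* values were above 0 and not called in oligodendrocytes (1.14, adjusted p = 0.024), OPCs (1.52, adjusted p = 0.046) and astrocytes (1.16, adjusted p = 0.0157), with all 3 injured animals above control. *ATL2* was also below control in all 3 injured animals in OPCs (-1.52, not called). It was at 0.0046 in oligodendrocytes, 0.22 in microglia and -0.09 in endothelial cells. *RTN2* was at -0.69 in oligodendrocytes, -0.57 in OPCs and -0.79 in inhibitory neurons, with no call. It was above 0 and not called in astrocytes, microglia and endothelial cells.

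Called genes of the list were thus 2 higher and 1 lower of 34 tested in astrocytes, 2 and 1 of 35 in endothelial cells, 1 and 1 of 35 in excitatory neurons and 1 and 0 of 35 in inhibitory neurons. Over all genes the shares called higher and lower were 1.12% and 0.378%, 4.19% and 1.99%, 2.6% and 1.25%, and 2.2% and 1.22% in these types in turn. Beside these, so few calls on the list are no result about the list. No gene of the list was called by edgeR in oligodendrocytes, OPCs or microglia, where 8 of 31, 8 of 32 and 15 of 36 had an unadjusted p under 0.05, beside 30.8%, 19.9% and 21.2% of all genes, and DESeq2 called 0, 2 and 1. The median change of the list was 0.16 in astrocytes beside 0.05 over all genes, 0.70 beside 0.26 in endothelial cells, 0.12 beside 0.0027 in inhibitory neurons and 0.062 beside 0.024 in oligodendrocytes. It was below that of all genes in microglia (0.18 beside 0.42), OPCs (0.12 beside 0.17) and excitatory neurons (-0.040 beside 0.0039). The alternative scaling by library size moved the split of calls over all genes from 140 higher of 187 to 138 of 239 in astrocytes, from 393 of 582 to 263 of 527 in excitatory neurons, from 285 of 443 to 248 of 521 in inhibitory neurons and from 553 of 816 to 355 of 619 in endothelial cells. In OPCs 7 of 8 calls were higher, and none was left.

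A few other ligands and receptors of the topic were at or near 0. *NGFR* had 48 UMIs in the injured libraries together, from 1 to 20 in a cell type, and 7 in control. *OMG*, a myelin ligand of Nogo receptors, was listed at 0 UMIs in all injured nuclei, as was *CFL1*, a gene that all cells use, so a 0 in this table need not mean that a gene was silent. *S1PR2* had 2 UMIs in the injured libraries together. *MAG* and *LILRB2* were not analysed here.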

How the data were processed

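Nuclei of marmoset V1 were profiled by droplet-based sequencing of RNA 3′ ends. The authors aligned reads and counted UMIs with Cell Ranger 3.1.0 on the calJac3 genome, and assigned cell types. They removed doublets with Scrublet in the injured cohort and by a limit of 2500 genes per nucleus in Seurat in the control cohort. The deposited tables hold raw counts per gene and nucleus, not normalized, and their totals equalled the deposited totals in 100% of nuclei. The members and gene lists were chosen with earlier results of these data known.

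For each library and cell type the counts of all nuclei were added, and no nucleus was removed. Genes in both tables were tested with edgeR 4.0.16 (R 4.3.3; TMM, filterByExpr, quasi-likelihood test) and Benjamini-Hochberg adjustment. The spread came from the 3 injured libraries and was assumed for the control library. Differences between cell types were fitted with library as a block. Shares of nuclei at equal depth used a random draw of 1000 UMIs from each nucleus that had them, with Clopper-Pearson intervals. Against 0 control UMIs a floor of 3 UMIs in that library is given. Libraries held 22832703 to 48722394 UMIs.

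Named genes were all members, per cell type at most 5 called pathway genes with the largest change, *LILRB2*, *S1PR2*, *NGFR*, *MAG* and *OMG*, and per member the 3 most similar genes with at least 200 injured UMIs, of which those with no symbol are not printed. *CFL1* and the split by *CUX2* and *FOXP2* were chosen after their values were seen. Alternatives were scaling by library size, RLE factors, DESeq2 1.42.0, no low-count filter, thinned nuclei, nuclei with at most 2500 genes, an adjusted p limit of 0.05, genes not listed for control taken as 0, and leaving out each injured library. The fits were tested on simulated data. Python 3.11.15, numpy 2.4.6, pandas 2.3.3 and scipy 1.17.1 were also used.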

Additional observations from a re-analysis of the deposited data

Results flagged for a closer look

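The change of *RTN4* with injury in oligodendrocytes differed from the mean change of the other 6 cell types by -1.04 on the log2 scale (SE 0.18, adjusted p = 0.0053 in the edgeR interaction test). Its sign was the same under all 9 alternatives of that test, from -1.21 to -0.93, with adjusted p from 0.0035 to 0.0608, and 4 of the 9 passed the limit.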

How the results depend on the processing

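The count of called members, 3, became 6 with DESeq2, 7 at an adjusted p limit of 0.05 and 1 to 9 when each injured library was left out (1 without replicate 1, 9 without replicate 2 and 5 without replicate 3). For the pathway list, 9 calls became 15 with DESeq2, 30 at the limit of 0.05 and 4 to 26 with a library left out. The single call in the interaction test became 0 with RLE factors, 0 without the low-count filter, 3 with nuclei of at most 2500 genes, 3 at the limit of 0.05 and 0 to 0 with a library left out. The other settings kept these counts within 1.5 times, and the 7 members kept the same highest cell type in both cohorts under thinning and under CPM of shared genes. Calls over all genes moved as well. In astrocytes 187 became 340 with DESeq2, 891 at the limit of 0.05, and 82, 716 and 315 without replicates 1, 2 and 3. Endothelial calls went from 816 to 743, 1802, 513, 1617 and 1418 in the same order. Those of excitatory neurons went from 582 to 1193, 1834, 77, 919 and 920. The change in member counts is thus no result about the members.

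The fold changes of *RTN4* kept their direction under every alternative, in astrocytes from 1.67 to 1.93, in endothelial cells from 1.44 to 1.69 and in excitatory neurons from 0.75 to 1.10. Signs turned only for uncalled values. With library size scaling *RTN3* was -0.094 in oligodendrocytes and -0.082 in microglia and *RTN4RL1* -0.012 in endothelial cells. *RTN3* in oligodendrocytes was -0.012 with RLE factors and -0.012 with DESeq2. Without the low-count filter *RTN1* in OPCs was 0.035. Thinned nuclei gave *RTN1* 0.90 in OPCs and 0.37 in astrocytes, *RTN3* -0.15 in microglia, *RTN4RL1* 0.071 in excitatory and 0.29 in inhibitory neurons and *TNFRSF19* 0.17 in inhibitory neurons. Nuclei with at most 2500 genes gave *RTN1* 0.20 in OPCs and 0.67 in astrocytes, *LINGO1* 0.40 in OPCs and *RTN4RL1* 0.21 in excitatory and 0.10 in inhibitory neurons. Leaving out a library gave *RTN3* -0.10 to 0.11 in oligodendrocytes, *RTN1* -0.18 to 0.033 in OPCs, and *RTN4RL1* -0.066 to 0.0076 in excitatory and -0.083 to 0.12 in inhibitory neurons. In the interaction test *RTN4RL1* in OPCs turned to 1.18 after thinning and *RTN4* in excitatory neurons to 0.038 with RLE factors. The cause of these changes was not tested. No paired analysis was possible because the control cohort is 1 library and shares no animal with the injured cohort. The control library held 129 microglia, 171 OPCs and 181 endothelial cells, and whether these numbers set the number of calls was not tested.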
